A study of Homo sapiens with 12 samples.

Results

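Integrin subunits and laminin chains were followed in 786-O cells, a clear cell renal cell carcinoma line that lacks functional VHL, and in WT8 cells, a 786-O derivative that expresses wildtype VHL. Members were the gene names of the count table that denote an integrin alpha subunit (ITGA), an integrin beta subunit (ITGB1 to ITGB8) or a laminin alpha, beta or gamma chain (LAMA, LAMB, LAMC). This rule found 38 of 38021 names: 18 alpha subunits, 8 beta subunits and 12 laminin chains. Of these, 32 had enough counts to be tested among 16838 genes, and 6 did not: ITGA8, ITGA9, ITGAD, ITGAL, LAMB4 and LAMC3.

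There were 4 groups of 3 libraries, labelled as biological replicates: 786-O shControl, 786-O shBMAL1, WT8 shControl and WT8 shBMAL1. Every group carried a lentiviral pLKO.1 shRNA vector under puromycin, either a scrambled control (shControl) or an shRNA to BMAL1 (shBMAL1), in DMEM with fetal bovine serum. BMAL1 is a clock transcription factor that can pair with HIF2α, the hypoxia factor that VHL marks for destruction. A difference between WT8 and 786-O is a difference between 1 derivative and 1 parent line, so the effect of VHL and other differences between the lines cannot be told apart. The labels give 1 shBMAL1 name for both lines, and whether the replicates were separate infections is not given in the sources used here, so p-values measure the spread between these libraries.

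Integrins are transmembrane receptors made of an alpha and a beta subunit, and the alpha subunit largely sets which matrix protein is bound. Laminins are trimers of an alpha, a beta and a gamma chain that polymerise into the basement membrane sheet on which epithelial cells rest. In the kidney, laminins with the alpha5 chain form the basement membranes of tubules and glomeruli, and integrins that contain alpha3 or alpha6 bind them from the epithelial side.

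Totals ran from 33182005 to 36477484 counts per library, and levels are given as CPM, counts scaled to a common library total. ARNTL, the symbol under which BMAL1 is listed, was at 12.1 ± 1.37 CPM (SD, n = 3) in 786-O shControl, 3.94 ± 0.22 in 786-O shBMAL1, 9.24 ± 0.97 in WT8 with shControl and 1.66 ± 0.24 in WT8 with shBMAL1. VHL was at 18.8 ± 1.58, 19.4 ± 1.62, 981 ± 56.5 and 647 ± 15.1 CPM in the same order, so VHL in WT8 was also lower with shBMAL1. EPAS1, the gene of HIF2α, was at 192 ± 4.31, 182 ± 7.77, 259 ± 10.1 and 90.8 ± 1.79 CPM in that order. Among renal epithelial and carcinoma markers, PAX8, KRT8, KRT18 and VIM had at least 242 CPM (rounded) in every library. CDH6 ranged from 35.0 to 530.1 CPM, PAX2 from 10.1 to 27.2 and CDH16 from 8.27 to 75.5, and CDH16 was at 73.6 CPM on average in WT8 shControl and 9.21 in WT8 shBMAL1. CA9 and NDUFA4L2, hypoxia genes of this carcinoma, reached at most 1.41 and 1.63 CPM, and the proximal tubule markers CUBN and LRP2 at most 1.74 and 0.086 CPM. The 9 leukocyte markers summed to 0.257 to 0.788 CPM per library, with CD3E and TYROBP at 0 in all 12 and PTPRC at no more than 1 count. The 4 platelet markers summed to 0.114 to 1.62 CPM, with PPBP and GP9 at 0 throughout, and the 5 fibroblast markers to 8.21 to 14.7 CPM. The 5 endothelial markers summed to 13.9 to 54.5 CPM, of which EGFL7 made up 13.7 to 53.6 CPM. The leukocyte, platelet and endothelial sums were each highest in the 3 WT8 shControl libraries. Mitochondrial genes took 3.54% of counts in 786-O shControl, 3.99% in 786-O shBMAL1, 5.16% in WT8 with shControl and 5.09% in WT8 with shBMAL1. In these bulk cultures, fewer cells with a transcript and less of it per cell cannot be told apart.

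The members together took 0.772 ± 0.0031% of counts in 786-O shControl, 0.815 ± 0.0090% in 786-O shBMAL1, 0.847 ± 0.013% in WT8 with shControl and 0.531 ± 0.016% in WT8 with shBMAL1. The last group stood below the other 3, with no overlap in the range of its libraries. Differences are log2 changes with their standard error (SE) from edgeR, and a gene was called when its adjusted p was under 0.1. Members could pass the filter on low counts through a single group, so the counts of members that follow are descriptions.

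With shBMAL1 in 786-O, 20 of the 32 tested members were called, against 48.9% of all genes tested. Of these, 8 were higher and 12 lower, where 24.5% of all genes were called higher and 24.4% lower. The median log2 change was -0.13 over the members and 0.00 over all genes. With shBMAL1 in WT8, 26 members were called (69.8% of all genes), 3 of them higher (32.9% of all genes) and 23 lower (36.9%). Here the members had a median of -0.75, and all genes had -0.04. Between the lines with shControl, 29 members were called (79.5% of all genes), 14 higher in WT8 (39.3%) and 15 lower (40.2%), with medians of -0.11 and 0.00. Between the lines with shBMAL1, 25 were called (73.0% of all genes), 7 higher in WT8 (36.0%) and 18 lower (37.0%), with medians of -0.60 and 0.00. These 4 comparisons use each group in a pair of comparisons, so their values are not independent.

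Calls with a log2 change of at least 1 in size numbered 5 members with shBMAL1 in 786-O (6.83% of all genes), 12 with shBMAL1 in WT8 (20.5%), 17 between the lines with shControl (32.1%) and 15 between the lines with shBMAL1 (24.2%). All 12 in WT8 were falls. In 786-O there were 3 rises, LAMA5, LAMA1 and ITGB8, and 2 falls, ITGAM and ITGB4.

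**Figure D1:**
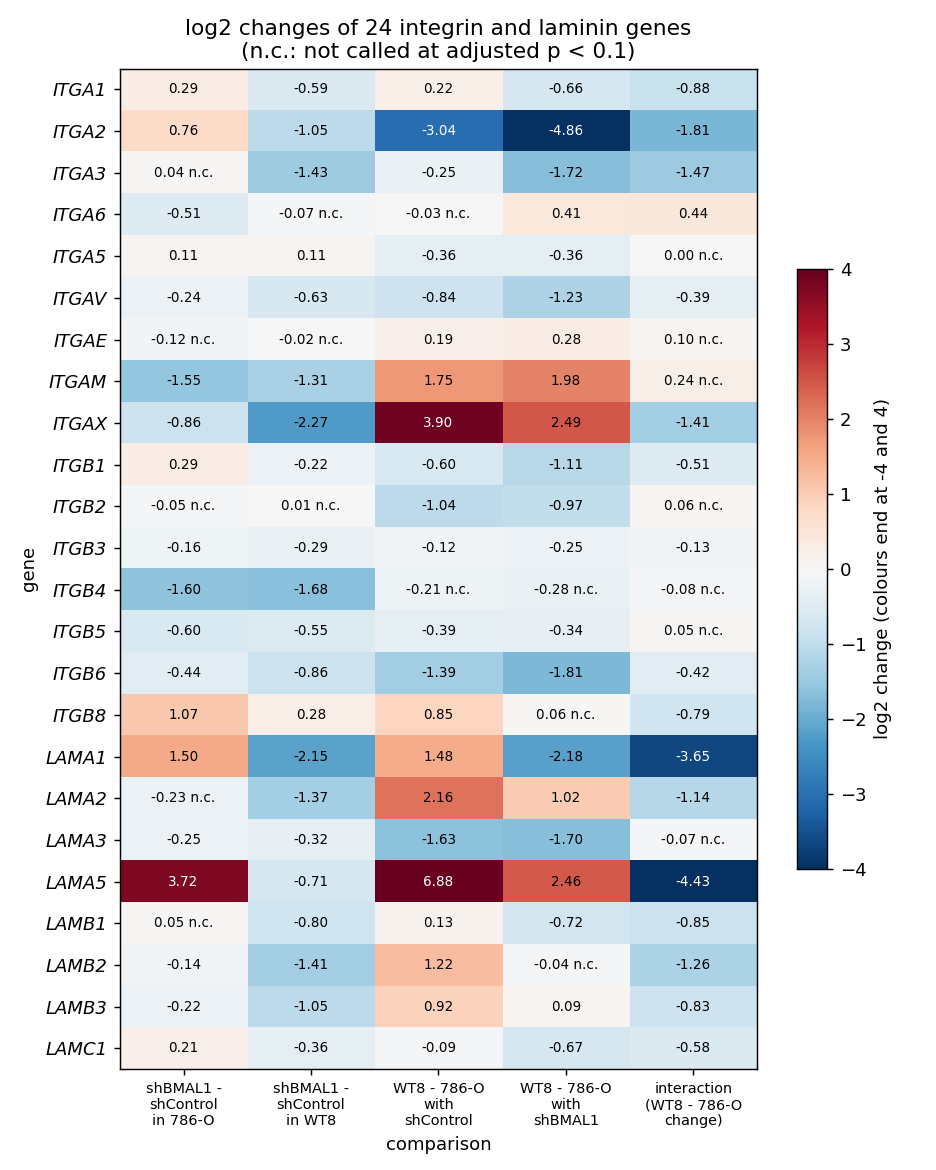
Log2 changes of 24 members with a mean of at least 50 counts over the 12 libraries (rows) in the 4 comparisons of groups and the interaction (columns). Red is higher and blue lower, n.c. marks values that were not called, and the column for shBMAL1 in WT8 is mostly blue, with ITGB8 and ITGA5 among the called rises.

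LAMA5 encodes the laminin alpha5 chain and lies on GRCh37 chromosome 20, 60883011 to 60942368, minus strand. It had the widest range of the members that stayed above 3 counts in every library, 118-fold between the highest and the lowest group mean. In 786-O shControl it was at 14.4, 9.92 and 9.67 CPM and in 786-O shBMAL1 at 146, 145 and 157. In WT8 shControl the libraries had 1322, 1308 and 1385 CPM, and in WT8 shBMAL1 846, 866 and 750.4. No pair of groups overlapped, and the order was 786-O shControl, 786-O shBMAL1, WT8 shBMAL1 and WT8 shControl from lowest to highest. With shBMAL1, LAMA5 rose in 786-O by 3.72 ± 0.13 on the log2 scale (edgeR, adjusted p = 2.49e-09), which is 13.2-fold. In WT8 it fell with shBMAL1, by a log2 change of -0.71 ± 0.10 (adjusted p = 9.48e-05). The opposite directions differed, with an interaction of -4.43 ± 0.16 (adjusted p = 2.53e-09). WT8 stood above 786-O by 6.88 ± 0.13 with shControl (adjusted p = 3.47e-12) and by 2.46 ± 0.10 with shBMAL1 (adjusted p = 4.29e-09).

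ADRM1, a proteasome subunit gene that overlaps LAMA5 on the opposite strand, was at 205, 282, 229 and 267 CPM as means of the 4 groups in the order 786-O shControl, 786-O shBMAL1, WT8 shControl and WT8 shBMAL1. Its log2 changes with shBMAL1 were 0.46 in 786-O and 0.22 in WT8. All 12 deposited values of LAMA5 were not whole numbers, and how reads with several alignments or on overlapping genes were divided is not given in the sources used here.

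The start regions of members are shown for 3 genes: LAMA5, whose levels are given above, ITGA6, the sole member with an E-box of the kind BMAL1 binds in the windows searched, and ITGB5, whose window held the most hypoxia response cores. RefSeq windows on GRCh38.p14, from 250 bases before to 50 after a gene start, were found for 26 of the 38 members, 33 windows in all. Members without an entry included ITGA3, ITGA7, ITGA9, ITGAD, ITGAL, ITGAX, ITGB2, ITGB3, ITGB4, LAMA1 and LAMC3. Windows were searched on both strands for the E-box CACGTG and for the hypoxia response cores ACGTG and GCGTG, and capitals mark every match. The E-box contains ACGTG on each strand, so it counts in both searches. CACGTG was in 1 of the 33 member windows and in 7.26% of 35116 RefSeq windows, and a hypoxia response core was in 42.4% of the member windows and in 48.5% of all. The windows lie at chr20:62367263-62367562 on the minus strand, chr2:172427086-172427385 on the plus strand and chr3:124887635-124887934 on the minus strand, in the order printed.
LAMA5: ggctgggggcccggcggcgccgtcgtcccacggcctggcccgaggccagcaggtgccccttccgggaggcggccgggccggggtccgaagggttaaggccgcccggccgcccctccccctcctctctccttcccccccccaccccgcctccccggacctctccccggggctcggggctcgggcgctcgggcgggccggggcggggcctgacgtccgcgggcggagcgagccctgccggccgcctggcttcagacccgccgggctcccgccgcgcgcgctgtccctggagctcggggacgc
ITGA6: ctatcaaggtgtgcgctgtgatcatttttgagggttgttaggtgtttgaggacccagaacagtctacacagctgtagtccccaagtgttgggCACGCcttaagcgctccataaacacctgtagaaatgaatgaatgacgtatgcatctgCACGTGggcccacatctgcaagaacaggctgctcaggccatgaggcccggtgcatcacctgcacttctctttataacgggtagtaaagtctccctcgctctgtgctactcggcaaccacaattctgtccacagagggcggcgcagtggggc
ITGB5: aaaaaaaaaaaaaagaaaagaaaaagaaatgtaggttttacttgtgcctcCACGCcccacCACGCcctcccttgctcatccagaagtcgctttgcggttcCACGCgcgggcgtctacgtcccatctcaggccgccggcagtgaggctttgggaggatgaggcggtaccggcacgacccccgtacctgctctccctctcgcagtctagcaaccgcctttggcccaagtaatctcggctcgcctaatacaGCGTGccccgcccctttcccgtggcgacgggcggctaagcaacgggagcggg
The LAMA5 window holds neither motif. The E-box of ITGA6 begins 101 bases before an upstream start of that gene, in a window that also holds a hypoxia response core apart from it. Of the 3 windows of ITGB5, the one printed holds 4 cores. A match describes letters in these windows only.

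LAMA3, the alpha chain of the laminin that anchors epithelia through hemidesmosomes (GRCh37 chromosome 18, 21269417 to 21536186, plus strand), went the other way between the lines. Its libraries had 308, 295 and 269 CPM in 786-O shControl and 253, 237 and 243 in 786-O shBMAL1. In WT8 it was at 85.8, 99.7 and 95.6 CPM with shControl and 74.6, 82.5 and 68.1 with shBMAL1, so that every WT8 library was below every 786-O library. The log2 change from 786-O to WT8 was -1.63 ± 0.06 with shControl (edgeR, adjusted p = 2.68e-17) and -1.70 ± 0.06 with shBMAL1 (adjusted p = 1.99e-17). With shBMAL1 it fell slightly in both lines, by 0.25 ± 0.06 in 786-O (adjusted p = 0.00182) and 0.32 ± 0.06 in WT8 (adjusted p = 0.000129) on the log2 scale. The interaction was -0.07 ± 0.09 and was not called (adjusted p = 0.544).

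LAMA1, the alpha chain of the embryonic laminin (GRCh37 chromosome 18, 6941741 to 7117796, minus strand), was low and moved in opposite directions. It was at 2.48, 2.29 and 2.22 CPM in 786-O shControl and 6.63, 7.14 and 6.06 in 786-O shBMAL1, and at 6.52, 6.67 and 6.28 in WT8 with shControl and 1.49, 1.74 and 1.15 in WT8 with shBMAL1. The 786-O shBMAL1 and WT8 shControl libraries overlapped, and both stood above the other groups. With shBMAL1, LAMA1 rose by 1.5 ± 0.15 in 786-O (edgeR, adjusted p = 4.19e-10) and changed by -2.15 ± 0.16 in WT8 (adjusted p = 4.85e-14), with an interaction of -3.65 ± 0.22 (adjusted p = 3.09e-16). WT8 differed from 786-O by 1.48 ± 0.15 with shControl (adjusted p = 1.05e-10) and by -2.18 ± 0.16 with shBMAL1 (adjusted p = 2.76e-14), a change of sign. Of the 12 deposited values of LAMA1, 10 were not whole, and of those of LAMA2, 9 were not.

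LAMA2, the alpha chain of the laminin of muscle and nerve (GRCh37 chromosome 6, 129204283 to 129837711, plus strand), had 1.17, 1.49 and 1.62 CPM in 786-O shControl and 1.09, 0.72 and 1.84 in 786-O shBMAL1. In WT8 it had 6.74, 6.64 and 5.79 CPM with shControl and 2.15, 2.41 and 2.84 with shBMAL1. Both WT8 groups lay above both 786-O groups, and the 786-O groups overlapped. It fell with shBMAL1 in WT8, with a log2 change of -1.37 ± 0.19 (edgeR, adjusted p = 1.36e-07), while the change in 786-O was -0.23 ± 0.25 and was not called (adjusted p = 0.494). Without replicate 3 of 786-O shBMAL1, the highest of its group, that change was -0.66 with an adjusted p of 0.046. The interaction was -1.14 ± 0.32 (adjusted p = 0.0028), and it was -0.71 without that library. WT8 was higher by 2.16 ± 0.21 with shControl (adjusted p = 1.95e-11) and by 1.02 ± 0.23 with shBMAL1 (adjusted p = 0.000204). LAMA4, the alpha chain of vessel and muscle laminins, had 6 to 11 counts in 786-O shControl, 16 to 17 in 786-O shBMAL1, 0 in all WT8 shControl libraries and 0 to 2 in WT8 shBMAL1. Set against 3 counts per library, LAMA4 was at least 2.88-fold lower in WT8 than in 786-O with shControl.

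**Figure D2:**
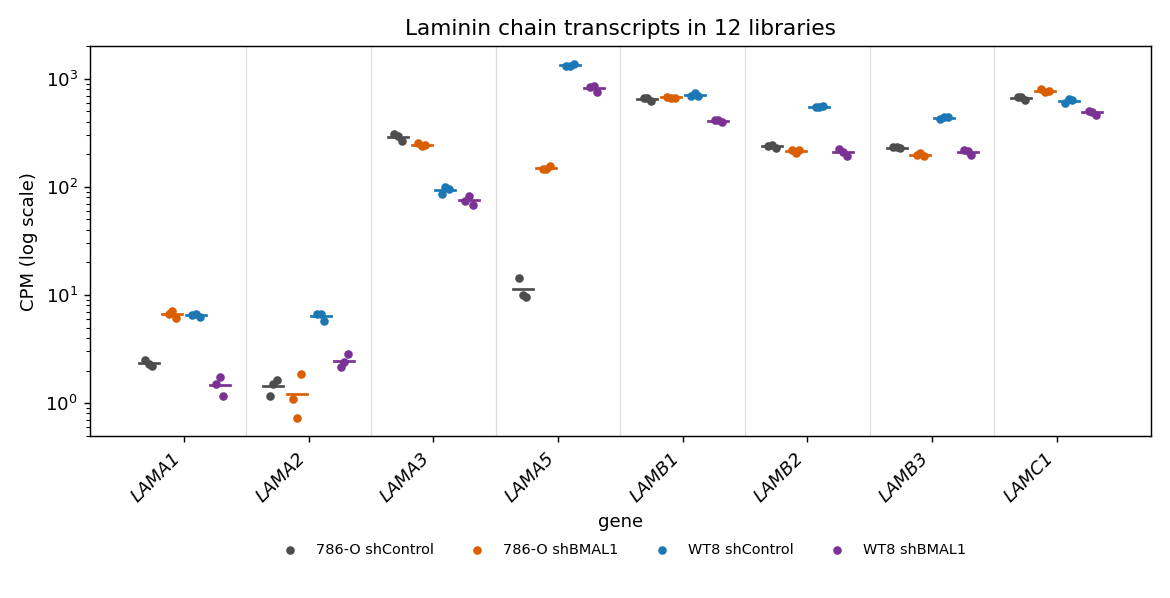
CPM of 8 laminin chains with a mean of at least 50 counts, on a log axis, with a point for each of the 12 libraries and a bar at each group mean. LAMA5 climbs from a mean of 11.3 CPM in 786-O shControl to 1338 in WT8 shControl, while LAMA3 is lower in WT8 than in 786-O.

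The laminin alpha chains were then set against each other per length, as CPM per kilobase of the canonical transcript. Summed over the 5 chains, this level was 28.7 ± 2.04 in 786-O shControl, 36.9 ± 0.87 in 786-O shBMAL1, 127 ± 3.60 in WT8 with shControl and 79.3 ± 6.03 in WT8 with shBMAL1 (SD, n = 3). LAMA3 made up 95.1 ± 0.55% of that sum in 786-O shControl and 62.2 ± 1.38% in 786-O shBMAL1, against 6.92 ± 0.52% in WT8 with shControl and 8.88 ± 0.32% in WT8 with shBMAL1. LAMA5 made up 3.44 ± 0.60%, 35.4 ± 1.36%, 92.0 ± 0.54% and 90.6 ± 0.34% of it in the same order. The predominant alpha chain transcript was thus LAMA3 in both 786-O groups and LAMA5 in both WT8 groups. LAMA1 was at most 1.86% of the sum as a group mean, and LAMA2 at most 0.52%.

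**Figure D3:**
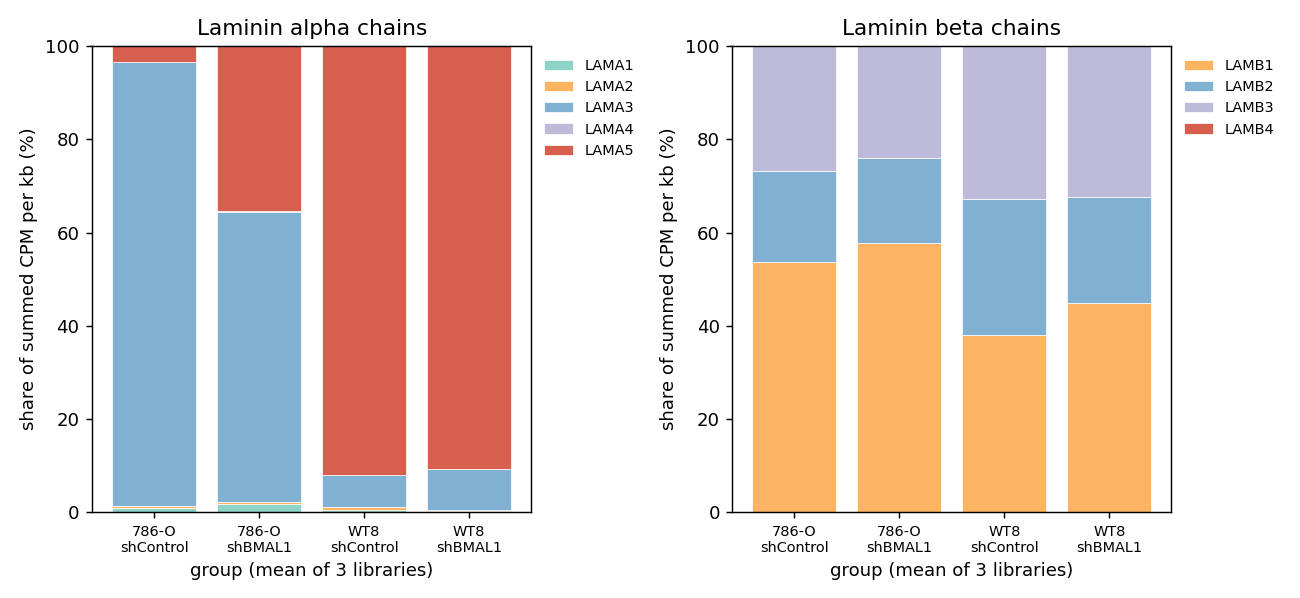
Share of each chain in the summed CPM per kilobase of the laminin alpha chains (left) and beta chains (right), as the mean of the 3 libraries of a group, with bars from 0 to 100%. LAMA5 takes 3.44% of the alpha sum in 786-O shControl, 35.4% in 786-O shBMAL1 and over 90% in both WT8 groups, and LAMB1 takes 53.7% of the beta sum in 786-O shControl and 38.0% in WT8 shControl.

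The laminin beta chains were higher in WT8 than in 786-O with shControl, and all 3 that were tested fell with shBMAL1 in WT8. LAMB2, the beta chain of the mature glomerular basement membrane (GRCh37 chromosome 3, 49158547 to 49170551, minus strand), was at 242, 245 and 227 CPM in 786-O shControl, 219.9, 208 and 219.6 in 786-O shBMAL1, then 552, 550.2 and 563 in WT8 with shControl and 224, 210.2 and 194 in WT8 with shBMAL1. WT8 shControl stood alone above the other 3 groups. LAMB2 was higher in WT8 by 1.22 ± 0.05 with shControl (edgeR, adjusted p = 5.54e-23) and fell with shBMAL1 in WT8 by a log2 change of -1.41 ± 0.05 (adjusted p = 1.9e-24). In 786-O the change was -0.14 ± 0.05 (adjusted p = 0.0136), and the interaction was -1.26 ± 0.07 (adjusted p = 2.72e-18). With shBMAL1 the lines differed by -0.04 ± 0.05, which was not called (adjusted p = 0.422). It was called without replicate 1 of WT8 shBMAL1, at -0.09 with an adjusted p of 0.0897.

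LAMB3, a beta chain of epithelial laminin that assembles with LAMA3, had 233, 233 and 229 CPM in 786-O shControl, 196, 205 and 195 in 786-O shBMAL1, then 425, 443 and 449 in WT8 with shControl and 221, 214 and 199 in WT8 with shBMAL1. It was again highest in WT8 shControl, with the other 3 groups close together. LAMB3 (GRCh37 chromosome 1, 209788215 to 209825770, minus strand) fell with shBMAL1 in WT8 by a log2 change of -1.05 ± 0.04 (edgeR, adjusted p = 1.52e-21) and in 786-O by one of -0.22 ± 0.04 (adjusted p = 9.09e-05), and the interaction was -0.83 ± 0.06 (adjusted p = 6.01e-14). LAMB1, the widely expressed beta chain, was at 624 to 667 CPM in 786-O shControl, 672 to 680.5 in 786-O shBMAL1, then 697 to 749 in WT8 with shControl and 397 to 416 in WT8 with shBMAL1. Its fall was found in WT8 (-0.80 ± 0.04, adjusted p = 1.41e-18), and the 786-O change of 0.05 ± 0.04 was not called (adjusted p = 0.353). The interaction of LAMB1 was -0.85 ± 0.06 (adjusted p = 9.12e-15). Per kilobase, LAMB1 made up 53.7%, 57.7%, 38.0% and 44.8% of the summed beta chains in 786-O shControl, 786-O shBMAL1, WT8 shControl and WT8 shBMAL1.

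LAMC1, the gamma chain of most laminins, was at 640.1 to 688 CPM in 786-O shControl, 762 to 804 in 786-O shBMAL1, then 602 to 652 in WT8 with shControl and 467 to 508 in WT8 with shBMAL1. It rose with shBMAL1 in 786-O (0.21 ± 0.04, edgeR, adjusted p = 0.000129) and fell in WT8 (-0.36 ± 0.04, adjusted p = 5.11e-09), with an interaction of -0.58 ± 0.06 (adjusted p = 7.05e-10). The difference between the lines with shControl, -0.09 ± 0.04 (adjusted p = 0.0576), lost its call under DESeq2, under its size factors in edgeR, in a fit of the compared groups alone and without any 1 of 3 libraries, which were replicates 1 and 2 of 786-O shControl and replicate 1 of WT8 shControl, with adjusted p from 0.155 to 0.292.

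Of the 3 laminin receptor alpha subunits, ITGA3 had the highest level per length in every group. ITGA3 pairs with ITGB1 into a laminin receptor of kidney epithelium (GRCh37 chromosome 17, 48133332 to 48167845, plus strand). It was at 1985, 1902 and 1957 CPM in 786-O shControl and 1945, 2005 and 2047 in 786-O shBMAL1. In WT8 it was at 1634, 1652 and 1619 CPM with shControl and 609, 632 and 581 with shBMAL1. The 786-O groups overlapped, and WT8 shBMAL1 was the lowest group by far. ITGA3 fell with shBMAL1 in WT8 by a log2 change of -1.43 ± 0.04 (edgeR, adjusted p = 2.49e-26), and in 786-O the change was 0.04 ± 0.04, not called (adjusted p = 0.49). The interaction was -1.47 ± 0.06 (adjusted p = 5.87e-22). Between the lines the difference was -0.25 ± 0.04 with shControl (adjusted p = 9.12e-07) and -1.72 ± 0.04 with shBMAL1 (adjusted p = 5.54e-29).

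ITGA6, which pairs with ITGB1 or ITGB4 and also binds laminin, showed another pattern. It was at 63.1 to 65.9 CPM in 786-O shControl, 43.5 to 47.1 in 786-O shBMAL1, then 60.2 to 69 in WT8 with shControl and 59.6 to 61.5 in WT8 with shBMAL1. ITGA6 fell with shBMAL1 in 786-O (-0.51 ± 0.06, edgeR, adjusted p = 3.78e-09), and the change in WT8 was -0.07 ± 0.06, not called (adjusted p = 0.314). Its interaction of 0.44 ± 0.08 had the opposite sign to that of ITGA3 (adjusted p = 1.8e-05). Of the 12 deposited values of ITGA6, 10 were not whole. ITGA7, the laminin receptor subunit of muscle, had a mean of 48.2 counts over the libraries and ranged from 0.75 to 2.72 CPM. Its change with shBMAL1 in WT8 was -1.38 ± 0.26 (edgeR, adjusted p = 1.87e-05), and in 786-O it was -0.27 ± 0.28, not called (adjusted p = 0.468).

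Among the 4 collagen receptor alpha subunits, ITGA2 had the largest difference between the lines. ITGA2 pairs with ITGB1 into a receptor for fibrillar collagen (GRCh37 chromosome 5, 52285170 to 52390609, plus strand). It was at 27, 25 and 25.3 CPM in 786-O shControl and 45.1, 40.6 and 45.3 in 786-O shBMAL1, against 3.72, 3.05 and 2.61 in WT8 with shControl and 1.65, 1.34 and 1.53 in WT8 with shBMAL1. The order of the groups had no overlap. The log2 change from 786-O to WT8 was -3.04 ± 0.10 with shControl (edgeR, adjusted p = 1.84e-24) and -4.86 ± 0.11 with shBMAL1 (adjusted p = 2.17e-29). With shBMAL1 it rose in 786-O (0.76 ± 0.08, adjusted p = 1.32e-09) and fell in WT8 (-1.05 ± 0.15, adjusted p = 1.05e-07), and the interaction was -1.81 ± 0.17 (adjusted p = 2.05e-11).

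ITGA1, another collagen receptor subunit, was at 8.26 to 9.89 CPM in 786-O shControl, 10.7 to 11.3 in 786-O shBMAL1, then 9.51 to 11.2 in WT8 with shControl and 6.95 to 7.01 in WT8 with shBMAL1. It fell with shBMAL1 in WT8 (-0.59 ± 0.10, edgeR, adjusted p = 7.14e-06) and was higher in 786-O (0.29 ± 0.10, adjusted p = 0.0182), with an interaction of -0.88 ± 0.15 (adjusted p = 3.79e-06). The change in 786-O was 0.23 with an adjusted p of 0.11 without replicate 2 of 786-O shControl. PELO, a ribosome rescue gene that overlaps ITGA1 on the same strand, was at 21.6 to 31.0 CPM as group means, so reads could be shared. ITGA10 and ITGA11 stayed at or below 31 and 12 counts in every library. ITGA11 had 10 to 12 counts in WT8 shControl and at most 5 in the other groups.

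Of the receptor subunits that recognise the RGD motif of fibronectin and vitronectin, ITGAV was lowest in WT8 shBMAL1. ITGAV is the shared alpha subunit of the vitronectin receptors and of those that activate latent TGF-beta (GRCh37 chromosome 2, 187454737 to 187545628, plus strand). It was at 399.9, 412 and 419.8 CPM in 786-O shControl, 346, 341 and 355 in 786-O shBMAL1, then 226, 237 and 226 in WT8 with shControl and 153, 146 and 147 in WT8 with shBMAL1. No pair of groups overlapped. The lines differed by -1.23 ± 0.04 with shBMAL1 (edgeR, adjusted p = 2.96e-24) and by -0.84 ± 0.04 with shControl (adjusted p = 1.34e-19). With shBMAL1, ITGAV fell in 786-O (-0.24 ± 0.04, adjusted p = 9.23e-06) and in WT8 (-0.63 ± 0.04, adjusted p = 1.7e-15), and the interaction was -0.39 ± 0.06 (adjusted p = 8.72e-07).

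ITGA5, the alpha subunit of the classical fibronectin receptor, had the smallest called changes with shBMAL1 in both lines. It was at 343 to 373 CPM in 786-O shControl, 379 to 393 in 786-O shBMAL1, then 271 to 286 in WT8 with shControl and 289.8 to 304 in WT8 with shBMAL1. Its log2 change with shBMAL1 was 0.11 ± 0.04 in 786-O (edgeR, adjusted p = 0.0352) and 0.11 ± 0.04 in WT8 (adjusted p = 0.0241). The call in 786-O was lost without replicate 2 or 3 of 786-O shControl or replicate 1 of 786-O shBMAL1, at 0.08 to 0.10 with adjusted p from 0.119 to 0.198. Of the 12 deposited values of ITGA5, 7 were not whole. ITGA2B, the platelet fibrinogen receptor subunit, did not exceed 1.25 CPM, and ITGA8, the nephronectin receptor subunit of mesenchyme, was at 0 counts in all 12 libraries.

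ITGA4, whose receptors bind VCAM1 and fibronectin, had 41 to 54 counts in 786-O shControl, 13 to 36 in 786-O shBMAL1, 0 in all 3 WT8 shControl libraries and 0 to 2 in WT8 shBMAL1. Against 3 counts per library it was at least 16.5-fold lower in WT8 than in 786-O with shControl. VCAM1, its ligand on inflamed endothelium and on some epithelia, was at 202 ± 7.44 CPM (SD, n = 3) in 786-O shControl and 0.37 ± 0.033 in WT8 shControl. ITGA9, the other subunit of this class, had at most 14 counts.

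ITGAX and ITGAM, alpha subunits known from myeloid cells, were higher in WT8. ITGAX (GRCh37 chromosome 16, 31366455 to 31394320, plus strand) was at 1.60, 0.51 and 1.14 CPM in 786-O shControl, 0.60, 0.49 and 0.69 in 786-O shBMAL1, then 16.1, 15.7 and 16.7 in WT8 with shControl and 2.98, 3.98 and 3.11 in WT8 with shBMAL1. Every WT8 library exceeded every 786-O library, and the 786-O groups overlapped. The lines differed by 3.90 ± 0.19 with shControl (edgeR, adjusted p = 4.38e-18) and by 2.49 ± 0.24 with shBMAL1 (adjusted p = 1.2e-10). ITGAX fell with shBMAL1 in WT8 by a log2 change of -2.27 ± 0.16 (adjusted p = 1.09e-13), and the interaction was -1.41 ± 0.35 (adjusted p = 0.00116). The change in 786-O was -0.86 ± 0.29 (adjusted p = 0.0177), and without replicate 1 of 786-O shControl it was -0.48 with an adjusted p of 0.235. The 9 leukocyte markers moved with ITGAX between the WT8 groups. They summed to 0.257 to 0.379 CPM in 786-O shControl, 0.431 to 0.575 in 786-O shBMAL1, then 0.667 to 0.788 in WT8 with shControl and 0.321 to 0.374 in WT8 with shBMAL1. CD14, a monocyte marker, had the highest group mean of the 9 in each group, at 0.125, 0.307, 0.436 and 0.214 CPM on average in the same order, while CD3E and TYROBP were at 0 in every library. The part of these markers in the result was not tested.

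ITGAM (GRCh37 chromosome 16, 31271288 to 31344213, plus strand) had 0.82, 1.26 and 0.80 CPM in 786-O shControl, 0.29, 0.37 and 0.32 in 786-O shBMAL1, then 3.81, 3.45 and 2.42 in WT8 with shControl and 1.28, 1.44 and 1.18 in WT8 with shBMAL1. The 786-O shControl and WT8 shBMAL1 libraries overlapped, and the other groups stood apart. It fell with shBMAL1 by a log2 change of -1.55 ± 0.33 in 786-O (edgeR, adjusted p = 0.000234) and -1.31 ± 0.24 in WT8 (adjusted p = 1.07e-05), and the interaction of 0.24 ± 0.41 was not called (adjusted p = 0.666). WT8 was higher by 1.75 ± 0.25 with shControl (adjusted p = 1.02e-07) and by 1.98 ± 0.32 with shBMAL1 (adjusted p = 1.09e-06). ITGAE, which binds E-cadherin on epithelium, stayed between 23.9 and 33 CPM and was not called with shBMAL1 in either line (adjusted p = 0.246 and 0.824). ITGAD and ITGAL had at most 13 and 9 counts.

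**Figure D4:**
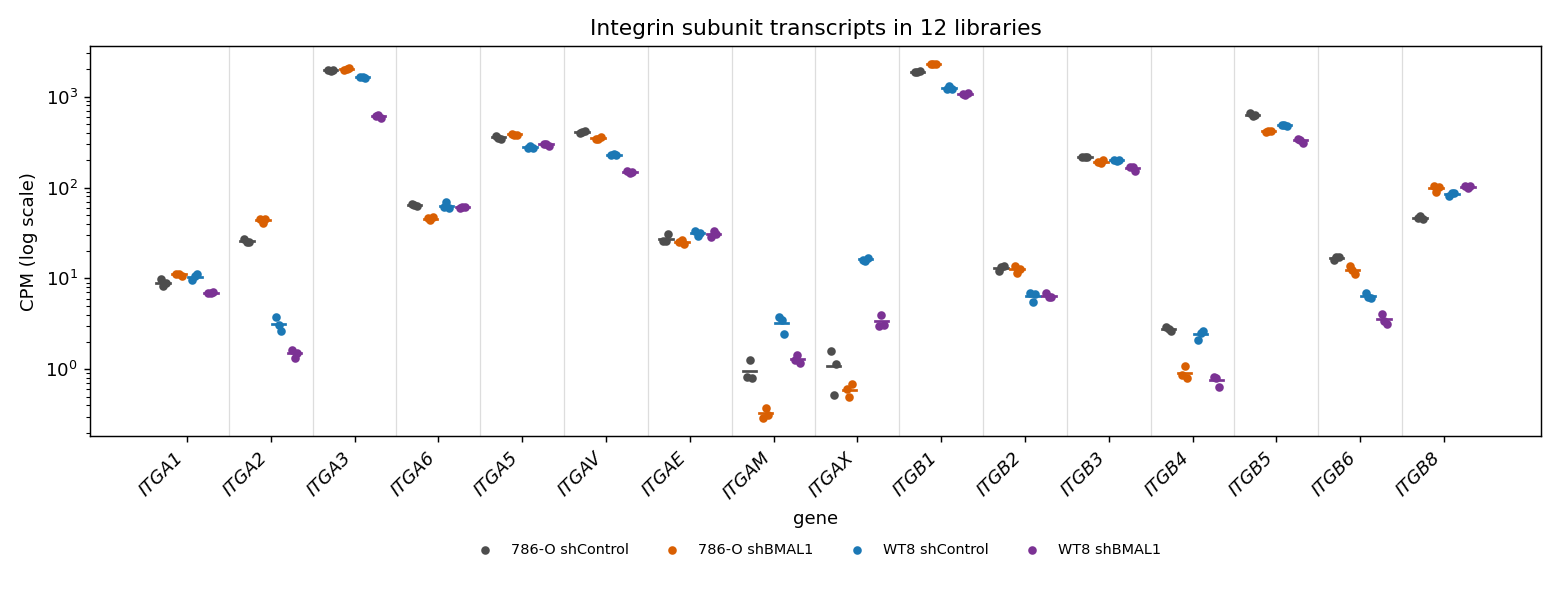
CPM of the 16 integrin subunits with a mean of at least 50 counts, on a log axis, with a point for each of the 12 libraries and a bar at each group mean. ITGA3 stands at 581 to 632 CPM in WT8 shBMAL1 against 1619 to 2047 in the other groups, and ITGA2 is at or below 3.72 CPM in WT8 against at least 25 in 786-O.

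ITGB1, the beta subunit shared by the collagen, laminin and fibronectin receptors (GRCh37 chromosome 10, 33176201 to 33294720, minus strand), was at 1862, 1867 and 1913 CPM in 786-O shControl, 2308, 2299 and 2295 in 786-O shBMAL1, then 1224, 1308 and 1202 in WT8 with shControl and 1060.0, 1047 and 1095 in WT8 with shBMAL1. The groups did not overlap, and both 786-O groups were above both WT8 groups. ITGB1 rose with shBMAL1 in 786-O (0.29 ± 0.04, edgeR, adjusted p = 2.35e-07) and fell in WT8 (-0.22 ± 0.04, adjusted p = 1.06e-05), with an interaction of -0.51 ± 0.06 (adjusted p = 1.48e-09). WT8 was lower by a log2 change of -1.11 ± 0.04 with shBMAL1 (adjusted p = 2.16e-23) and -0.60 ± 0.04 with shControl (adjusted p = 1.2e-15).

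ITGB8, a beta subunit that pairs with ITGAV and activates latent TGF-beta (GRCh37 chromosome 7, 20370325 to 20455377, plus strand), was the integrin subunit that rose most in 786-O among those called. It was at 46.5, 48.1 and 45.6 CPM in 786-O shControl, 103, 88.9 and 102 in 786-O shBMAL1, then 80.1, 86.1 and 86.7 in WT8 with shControl and 105, 98.7 and 103 in WT8 with shBMAL1. The 786-O shControl libraries lay below all others, and both shBMAL1 groups overlapped. With shBMAL1 it rose by 1.07 ± 0.06 in 786-O (edgeR, adjusted p = 9.23e-18) and by 0.28 ± 0.05 in WT8 (adjusted p = 2.81e-05), and the interaction was -0.79 ± 0.08 (adjusted p = 7.19e-11). TGFB1, whose latent form is a ligand of these receptors, was at 158 ± 2.92 CPM in 786-O shControl and 246 ± 10.5 in 786-O shBMAL1 (log2 change 0.64, adjusted p = 3.24e-14).

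ITGB4, the partner of ITGA6 in hemidesmosomes (GRCh37 chromosome 17, 73717408 to 73753899, plus strand), fell with shBMAL1 in both lines. It had 2.95, 2.80 and 2.64 CPM in 786-O shControl and 0.86, 1.09 and 0.80 in 786-O shBMAL1, and 2.12, 2.52 and 2.64 in WT8 with shControl and 0.82, 0.80 and 0.64 in WT8 with shBMAL1. The shBMAL1 libraries of both lines lay below all shControl libraries. The log2 change was -1.60 ± 0.23 in 786-O (edgeR, adjusted p = 4.31e-07) and -1.68 ± 0.23 in WT8 (adjusted p = 1.04e-07), with an interaction of -0.08 ± 0.33 that was not called (adjusted p = 0.88). The lines did not differ past the threshold with shControl (-0.21 ± 0.20, adjusted p = 0.363) or with shBMAL1 (-0.28 ± 0.26, adjusted p = 0.347).

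ITGB6, an epithelial partner of ITGAV (GRCh37 chromosome 2, 160956178 to 161056824, minus strand), was at 16.1, 17.2 and 17.1 CPM in 786-O shControl, 13.7, 12.4 and 11.1 in 786-O shBMAL1, then 6.93, 6.24 and 6.06 in WT8 with shControl and 4.09, 3.37 and 3.16 in WT8 with shBMAL1. It went down at each step of that order with no overlap. The lines differed by -1.39 ± 0.11 with shControl (edgeR, adjusted p = 3.86e-14) and by -1.81 ± 0.12 with shBMAL1 (adjusted p = 4.2e-16). With shBMAL1 the change was -0.44 ± 0.10 in 786-O (adjusted p = 0.000492) and -0.86 ± 0.12 in WT8 (adjusted p = 1.7e-07). Its interaction of -0.42 ± 0.16 (adjusted p = 0.0283) was not called without replicate 1 of 786-O shBMAL1 or replicate 3 of WT8 shBMAL1, at -0.33 in both cases with adjusted p of 0.101 and 0.108.

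ITGB2, the beta subunit of the leukocyte integrins, was at 12.1, 13.5 and 13.6 CPM in 786-O shControl, 13.7, 11.5 and 12.7 in 786-O shBMAL1, then 6.88, 5.51 and 6.69 in WT8 with shControl and 6.86, 6.18 and 6.21 in WT8 with shBMAL1. It was lower in every WT8 library than in every 786-O library, whereas its partners ITGAX and ITGAM were called higher in WT8 with either shRNA. The log2 difference between the lines for ITGB2 (GRCh37 chromosome 21, 46305868 to 46351904, minus strand) was -1.04 ± 0.11 with shControl (edgeR, adjusted p = 1.07e-10) and -0.97 ± 0.11 with shBMAL1 (adjusted p = 5.97e-10), and with shBMAL1 it was not called in 786-O (adjusted p = 0.726) or WT8 (adjusted p = 0.946).

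ITGB5, which pairs with ITGAV for vitronectin, was at 614 to 654 CPM in 786-O shControl, 411 to 423 in 786-O shBMAL1, then 478 to 488 in WT8 with shControl and 312 to 342 in WT8 with shBMAL1. It fell with shBMAL1 in both lines, by 0.60 ± 0.04 in 786-O (edgeR, adjusted p = 3.26e-14) and 0.55 ± 0.04 in WT8 (adjusted p = 6.12e-14) on the log2 scale, with an interaction of 0.05 ± 0.06 (adjusted p = 0.538). ITGB3, another partner of ITGAV, stayed between 151 and 218 CPM and fell with shBMAL1 in 786-O (-0.16 ± 0.04, adjusted p = 0.00329) and in WT8 (-0.29 ± 0.05, adjusted p = 6.69e-07). ITGB7, a partner of ITGA4 and ITGAE, had at most 63 counts in any library.

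Per kilobase of canonical transcript, ITGA3 made up 70.6 ± 0.31%, 71.7 ± 0.70%, 73.0 ± 0.27% and 52.5 ± 0.64% (SD, n = 3) of the summed alpha subunits in 786-O shControl, 786-O shBMAL1, WT8 shControl and WT8 shBMAL1. ITGA5 made up 14.9 ± 0.52%, 15.9 ± 0.52%, 14.3 ± 0.20% and 29.8 ± 0.30% in the same order. The summed level itself was 564 ± 10.3, 570.5 ± 9.95, 458 ± 6.28 and 236 ± 7.28 CPM per kilobase, so the WT8 shBMAL1 libraries had the lowest sum and the largest ITGA5 share. Of the summed beta subunits, ITGB1 made up 72.3 ± 0.53%, 80.9 ± 0.20%, 68.1 ± 0.86% and 71.1 ± 1.37%, and ITGB5 20.4 ± 0.61%, 12.4 ± 0.21%, 22.2 ± 0.49% and 18.5 ± 0.93%.

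To ask whether the response to shBMAL1 differed between the lines, the change in WT8 was set against that in 786-O. The interaction was called for 21 of the 32 tested members (56.0% of all genes), of which 3 had a higher change in WT8 (27.4% of all genes) and 18 a lower one (28.5%). The median interaction was -0.54 over the members and -0.03 over all genes. Called interactions of at least 1 in size numbered 10 members (17.4% of all genes), and 7 of these had a mean of at least 50 counts: LAMA5, LAMA1, ITGA2, ITGA3, ITGAX, LAMB2 and LAMA2. LAMA5, LAMA1, ITGA2, ITGA1, ITGB1 and LAMC1 were called higher with shBMAL1 in 786-O and lower in WT8. Among members with a mean of at least 50 counts, ITGA3, LAMB1 and LAMA2 were called in WT8 and not in 786-O, ITGA6 the reverse, each with a called interaction.

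**Figure D5:**
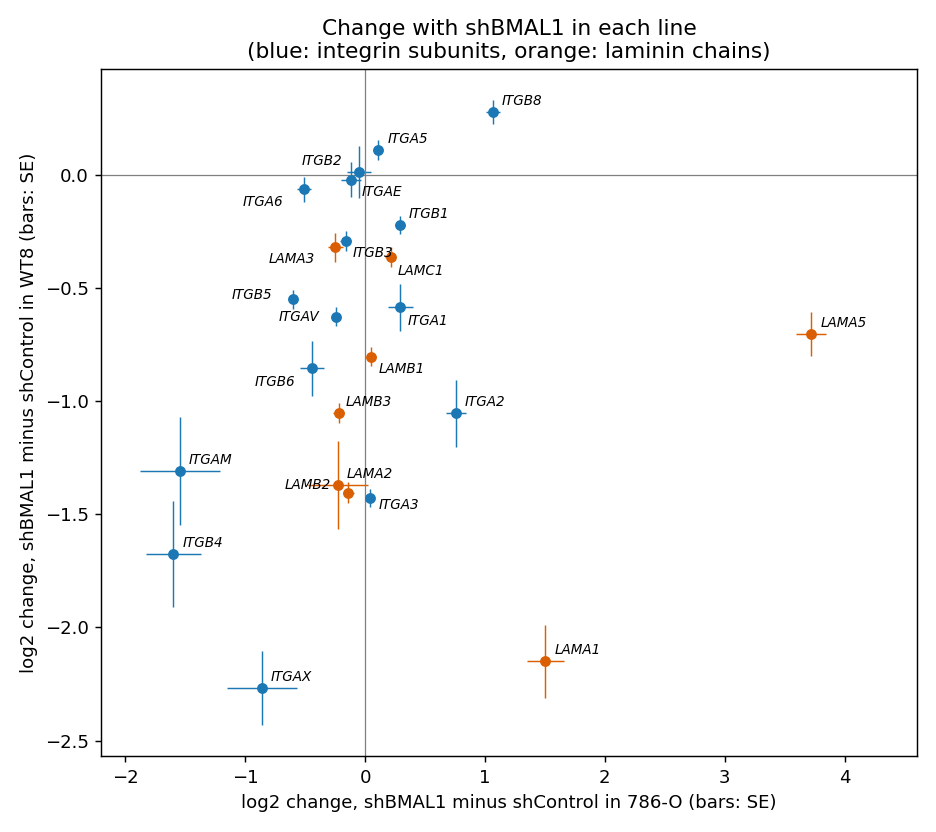
Log2 change with shBMAL1 in 786-O (x axis) against that in WT8 (y axis) for 24 members with a mean of at least 50 counts, with bars of 1 SE. LAMA5 and LAMA1 lie at the lower right (3.72 and -0.71, 1.5 and -2.15), and ITGB4, ITGAM and ITGAX at the lower left, where both changes are falls.

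Genes that build or bind the same structures were read from the same fit. Of 28 basement membrane partners, 24 were tested. With shBMAL1, 10 were higher and 5 lower in 786-O, where 24.5% and 24.4% of all genes were, and 6 were higher and 15 lower in WT8, where 32.9% and 36.9% of all genes were. The medians were 0.11 and -0.50, against 0.00 and -0.04 over all genes. BCAM, the Lutheran receptor that binds the laminin alpha5 chain, was at 12 ± 1.29 CPM (SD, n = 3) in 786-O shControl and 41.4 ± 4.28 in 786-O shBMAL1 (log2 change 1.78, edgeR, adjusted p = 6.63e-19), and at 471 ± 20.8 in WT8 with shControl and 63.8 ± 1.99 in WT8 with shBMAL1 (-2.88, adjusted p = 1.98e-27). BCAM thus rose in 786-O and fell in WT8, as LAMA5 did.

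The nidogen NID2, which links laminin to collagen IV, was at 24.5 ± 1.78 CPM in 786-O shControl and 81.4 ± 1.41 in 786-O shBMAL1, and at 0.32 ± 0.12 in WT8 shBMAL1. NID1, the other nidogen, was at 18.2 ± 0.75 CPM in 786-O shControl and 0.018 ± 0.016 in WT8 shControl. NID2 is not given here for WT8 shControl. With shBMAL1, NID1 was at 14.9 ± 0.36 CPM in 786-O and 0.12 ± 0.12 in WT8. Both nidogens were thus far lower in WT8 than in 786-O with that shRNA. The reverse held for COL4A4, a chain of the mature glomerular collagen IV, at 0.50 ± 0.22 CPM in 786-O shControl and 96.5 ± 7.02 in WT8 shControl (log2 change 7.59, adjusted p = 2.55e-34), and for its partner COL4A3, at 0.22 ± 0.13 and 14.9 ± 2.44 (6.05, adjusted p = 1.17e-23). PXDN, the peroxidasin that crosslinks collagen IV, was at 34.3 ± 2.23 CPM in 786-O shControl and 0.44 ± 0.089 in WT8 shControl. Between the lines with shControl, 12 of the 24 partners were higher in WT8 and 11 lower, against 39.3% and 40.2% of all genes.

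Of 40 adhesion adaptors and kinases, 38 were tested. With shBMAL1, 13 were higher and 13 lower in 786-O (24.5% and 24.4% of all genes), and 11 were higher and 18 lower in WT8 (32.9% and 36.9% of all genes). TNS1, a tensin that ties integrin tails to actin, fell in 786-O (41.7 ± 3.52 to 19.4 ± 1.43 CPM, log2 change -1.10, edgeR, adjusted p = 1.51e-14) and in WT8 (48.3 ± 1.76 to 10.9 ± 0.65 CPM, -2.14, adjusted p = 3.14e-23). ZYX, the focal adhesion protein zyxin, rose in 786-O by 0.54 (adjusted p = 1.42e-12) and in WT8 by 0.64 (adjusted p = 5.17e-15). TLN2, one of the talins that activate integrins, fell in 786-O with a log2 change of -1.24 (adjusted p = 3.99e-18). With shControl, 10 of these genes were higher in WT8 and 24 lower (39.3% and 40.2% of all genes), among them CAV1, the caveolae protein, at 281 ± 7.68 CPM in 786-O and 70.5 ± 4.96 in WT8 (-1.99, adjusted p = 8.74e-28), and SRC, the kinase, at 58.7 ± 1.76 and 120 ± 4.19 (1.03, adjusted p = 8.14e-20).

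Of 24 other integrin ligands, 19 were tested, and with shBMAL1 10 were higher and 4 lower in 786-O (24.5% and 24.4% of all genes), and 7 were higher and 4 lower in WT8 (32.9% and 36.9% of all genes). SPP1, the RGD ligand osteopontin, fell in 786-O (487 ± 23.0 to 376 ± 11.1 CPM, log2 change -0.37, edgeR, adjusted p = 5.84e-09) and in WT8 (1618 ± 36.8 to 306 ± 11.1 CPM, -2.40, adjusted p = 8.75e-32). THBS1, the matrix protein thrombospondin, rose in WT8 from 315 ± 11.1 to 514 ± 30.0 CPM (0.71, adjusted p = 2.11e-15). FN1, the ligand fibronectin, was at 3269 ± 403 CPM in 786-O shControl and 3937 ± 143 in WT8 shControl (0.27, adjusted p = 0.00829). Of 5 hemidesmosome genes, 3 were tested. With shBMAL1 none of them was called in 786-O, where the edgeR median was 0.04, and 2 were lower in WT8 (36.9% of all genes), with PLEC, the plakin that ties ITGB4 to keratin, at 3169 ± 119 CPM in WT8 with shControl and 2097 ± 277 in WT8 with shBMAL1 (-0.60, adjusted p = 0.000625).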

How the data were processed

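RNA-seq was analysed from 12 libraries of 786-O and WT8 cells. The authors deposited estimated counts per gene, not scaled between libraries. Per the labels, libraries were DNBSEQ stranded mRNA. By the methods of the study, they were sequenced as read pairs, aligned to GRCh37 with SeqMan NGen and counted in ArrayStar, whereas the submitters' processing notes name hg38, STAR and DESeq2. The file gives no build. Annotation, strand setting and the treatment of reads with several alignments are not given in the sources used here. A value of 0.028 stood in for 0 in 46.9% of values and was set to 0, and 5.67% of the others were not whole numbers, although the tests had been planned for whole counts. Lines with the same name were summed and the sums rounded. Among the values, 14904 were equal to 2 and 11312 equal to 1, so counts may not be independent fragments. Bounds against 3 counts cover counting error only.

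Genes were kept by filterByExpr and scaled by TMM, and a mean per group was fitted over all 12 libraries with the robust quasi-likelihood F test of edgeR 4.0.16 in R 4.3.3. P-values were two-sided, with Benjamini-Hochberg adjustment across the 16838 genes, and called under 0.1, the threshold of the study. The study used DESeq2, which was run here in version 1.42.0 as an alternative. SE was obtained as the absolute log2 change over the root of the F statistic. CPM used the library totals over the genes kept, multiplied by their TMM factors. The fit was also run on simulated independent counts with the same spread for all genes. That setting is simpler than these data, so it does not measure the errors of the fit here. Replicates differed beyond counting noise, at a chi-square of 4.50 to 12.6 per gene, so none was a copy of another. This does not show whether they came from separate cultures or infections. Positions and canonical transcript lengths are from GENCODE lifted to GRCh37, and promoters are from RefSeq on GRCh38.p14.

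The members, lists and naming rule were chosen with earlier results of these data known. Values in every library are given for members with a mean of at least 50 counts that were called with a log2 change of at least 1 in size, and partners were named as the 2 largest rises and falls among called genes of that mean in a comparison. Not all partners so found are named, and 1 member is not reported here, although totals and counts over the members include it. Alternatives were DESeq2 size factors, DESeq2, no filter on low counts, the compared groups alone, a replicate block, an adjusted p under 0.05, a fold change over 1.5 and leaving out each library.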

Additional observations from a re-analysis of the deposited data

Results flagged for a closer look

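The interaction, in which the shBMAL1 response of 786-O is subtracted from that of WT8 on the log2 scale, was called by edgeR for members that include 17 with a mean of at least 50 counts, which marks a difference between the lines in the response to shBMAL1. The laminin alpha chains gave -4.43 for LAMA5, -3.65 for LAMA1 and -1.14 for LAMA2. The beta chains gave -0.85 for LAMB1, -1.26 for LAMB2 and -0.83 for LAMB3, and LAMC1 had -0.58.

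Among the integrin alpha subunits, the interaction was -1.81 for ITGA2, -1.47 for ITGA3, -1.41 for ITGAX, -0.88 for ITGA1, -0.39 for ITGAV and 0.44 for ITGA6. The beta subunits gave -0.79 for ITGB8, -0.51 for ITGB1, -0.42 for ITGB6 and -0.13 for ITGB3. The ITGB3 value was called in 3 of the 12 fits that left out 1 library, and in the other 9 its adjusted p was 0.11 to 0.374. ARNTL itself had an interaction of -0.86, VHL one of -0.65 and EPAS1, the gene of HIF2α, one of -1.44, so the responses of the shRNA target, of VHL and of EPAS1 also differed between the lines, and their part in these values was not tested.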

How the results depend on the processing

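The 42 log2 changes named for members of at least 1 in size kept their direction and their call in all 791 values listed for them under the alternatives. Of these, the adjusted p under 0.05 and the fold change over 1.5 reuse the values of the main fit. The fold threshold could not remove a change of at least 1 in size. Requiring a fold change over 1.5 lowered the members called with shBMAL1 in 786-O from 20 to 8, and all genes called to 2409 with shBMAL1 in 786-O, 6037 with shBMAL1 in WT8, 8312 between the lines with shControl, 6504 between the lines with shBMAL1 and 4932 for the interaction, because a size is then required as well. Leaving out 1 library gave 18 to 21 members called with shBMAL1 in 786-O, 26 to 28 in WT8, 27 to 31 between the lines with shControl, 25 to 26 with shBMAL1 and 18 to 21 for the interaction. ITGAX lost its fall with shBMAL1 in 786-O without replicate 1 of 786-O shControl (adjusted p = 0.235). The differences between the lines with shControl in ITGA1 and ITGAE lost their calls in 4 and 3 fits that left out 1 library (adjusted p up to 0.215 and 0.167). The difference with shBMAL1 in LAMB3 did so in 4 (up to 0.259). That of ITGA1 was also not called with no filter on low counts (adjusted p = 0.111). Same-numbered replicates did not deviate together (r from -0.046 to 0.0065, against -0.027 to 0.051 for other numbers). This gave no sign that the numbers pair the libraries, but it cannot exclude a pairing. With a replicate block, 20, 26, 29, 25 and 20 members were called in the 5 comparisons, and ITGB3 lost its interaction (adjusted p = 0.106). DESeq2 size factors in edgeR moved the median log2 change of all genes by at most 0.019. DESeq2 itself moved it by 0.068 between the lines with shControl and by -0.089 for the interaction. With no filter on low counts, the median interaction moved by -0.057. Depth limits the 7 tested members with a mean under 50 counts, whose changes have wide errors.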

Other observations

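Some members below the filter were listed in WT8 and not, or barely, in 786-O. ITGAL had 9, 8 and 1 counts in WT8 shControl, 1, 2 and 3 in WT8 shBMAL1 and 0 in all 6 libraries of 786-O. ITGAD had 8 to 13 counts in WT8 shControl and at most 2 in either 786-O group. LAMC3 had 9 counts in 1 WT8 shControl library and 0 in the other 2. These values are near the floor of 3 counts and carry no test.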
